A study of Mus musculus with 88 samples.

Results

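Cluster 11 comprised 240 of the 4949 single cells kept from mouse embryoid bodies, and its cells carried a transcript profile rich in targets of the tumour suppressor p53. Its members were taken by the deposited cluster label at a clustering resolution of 2.5, which divided the cells into 22 clusters, and no gene was used to pick them. The comparison cells were the other 4709 kept cells and, as the nearest named populations, the 341 cells of cluster 1 and the 136 cells of cluster 15. Because the clusters were built from the expression of these same cells, gene levels in cluster 11 against other clusters are given as a description without a test.

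Embryoid bodies are aggregates in which embryonic stem cells leave pluripotency and form derivatives of the germ layers. They were grown from wild-type E14 cells, from Mtf2 null cells (per the study's methods a homozygous gene-trap line), and from Jarid2 null and Eed null cells (homozygous knockout lines), and were sampled undifferentiated (day 0) and at days 4, 7 and 10. Polycomb Repressive Complex 2 (PRC2) places the repressive mark H3K27me3. EED is a core subunit, while MTF2 and JARID2 are accessory subunits that define separate forms of the complex. Live cells, which excluded the dye 7-AAD, were sorted singly into the wells of 384-well plates, and transcripts were counted by unique molecular identifiers (UMIs). Each genotype and day was 1 library of 202 to 347 kept cells, and all 384 well barcodes recurred across the 16 libraries. Each genotype was 1 line and came from a separate source, although the labels name E14 as the strain of all of them, so that genotype, line and library cannot be told apart. Intervals given below are exact 95% intervals and cover counting error only.

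p53, encoded by Trp53, is a transcription factor that is held low by the ubiquitin ligase MDM2 and is stabilized after DNA damage and other stresses. It binds pairs of a short DNA half-site and switches on genes that halt the cell cycle, genes that promote apoptosis, genes of DNA repair, and Mdm2 itself, which closes a negative feedback loop. In pluripotent cells, which cycle rapidly, p53 activity is known for its links to differentiation and to cell death.

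The label has 4 markers, Cdkn1a, Trp53inp1, Serpine2 and Bbc3. Cdkn1a encodes the cyclin-dependent kinase inhibitor p21 and Trp53inp1 a p53-inducible stress protein. Serpine2 encodes a secreted protease inhibitor and Bbc3 the pro-apoptotic protein PUMA. The markers were chosen with earlier results of these data known, so their levels describe the label and do not test it. At least 1 UMI of all 4 was found in 67 of the 240 cells, of 3 in 77 cells, of 2 in 56, of 1 in 31 and of none in 9. Cluster 11 was shallower than its surroundings, with a median of 4226 UMIs and 2177 genes per cell, against 6754 UMIs and 2894 genes in the other cells, 7420 UMIs in cluster 1 and 5860 in cluster 15. In cluster 11, 20.8% of cells held fewer than 2500 UMIs, against 9.39% of the other cells. The study's ontology terms for this cluster were eye and retina. The early eye field gene Rax had no UMI among the 1282072 UMIs of cluster 11, which allows a level of up to 2.34 CPM (UMIs of a gene scaled to all UMIs of the same cells), against 12.7 CPM in cluster 15. Pax6, which encodes a master regulator of eye and forebrain, was at 14.0 CPM against 112 CPM in cluster 15, and the forebrain and eye regulator Six3 at 13.3 against 248 CPM. These eye genes were thus low beside cluster 15. Over the anterior neural and eye list, 2 of 15 members were measured against all other cells and neither was 2-fold different, one of them Otx2, a gene also used by epiblast, at 295 against 160 CPM.

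The promoters of 3 targets are shown because Cdkn1a is the classical p53 target and heads the profile, and because Ccng1 (cyclin G1) and Mdm2 (feedback) were higher in the cluster and each held a match. Each run is the 250 bases before a RefSeq transcription start in build GRCm38.p6, read 5′ to 3′ on the gene's strand, and capitals mark each match to the p53 half-site. The positions are Cdkn1a chr17:29090729-29090978 (plus strand), Ccng1 chr11:40755287-40755536 (minus strand) and Mdm2 chr10:117710759-117711008 (minus strand).
Cdkn1a: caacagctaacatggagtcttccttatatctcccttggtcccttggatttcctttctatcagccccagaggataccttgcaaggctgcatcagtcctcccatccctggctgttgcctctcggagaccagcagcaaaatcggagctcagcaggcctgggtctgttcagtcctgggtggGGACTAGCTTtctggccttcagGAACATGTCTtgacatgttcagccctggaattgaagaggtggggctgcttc
Ccng1: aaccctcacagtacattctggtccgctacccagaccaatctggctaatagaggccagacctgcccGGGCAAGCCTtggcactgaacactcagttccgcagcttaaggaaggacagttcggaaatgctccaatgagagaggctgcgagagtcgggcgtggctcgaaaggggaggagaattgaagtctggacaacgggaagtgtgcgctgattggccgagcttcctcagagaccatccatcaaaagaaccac
Mdm2: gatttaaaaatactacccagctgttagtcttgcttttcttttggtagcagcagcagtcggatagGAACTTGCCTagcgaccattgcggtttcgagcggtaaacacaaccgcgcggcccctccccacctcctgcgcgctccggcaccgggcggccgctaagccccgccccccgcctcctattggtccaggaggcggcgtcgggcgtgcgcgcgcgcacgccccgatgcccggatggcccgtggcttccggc
Cdkn1a has another window in the table, chr17:29093519-29093768, which held no match. Of the 3 windows shown, only that of Cdkn1a held a pair of half-sites, at most 13 bases apart, and it lay from 73 to 42 bases before the start. The single half-site of Ccng1 began 185 bases and that of Mdm2 186 bases before the start. On both strands, a half-site was present before at least 1 start of 2216 of 27025 genes with a promoter in the reference table (8.20%), of 440 of 6365 measured genes (6.91%) and of 9 of the 27 measured p53 targets with a promoter (33.3%). A pair was present for 18 genes in all (0.0666%), and for 1 of the 27 targets. Of the 9 targets with a half-site, Cdkn1a, Ccng1, Aen and Polk were at least 2-fold higher in cluster 11 than in the other cells, while Sesn1, Bax, Ei24, Siva1 and Rps27l were not. Bbc3, Phlda3 and Plk2, which were among the genes that stood highest in the cluster, had no match in their windows. These matches describe letters in a window and say nothing of binding.

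Cells of cluster 11 were found mainly in Mtf2 null and Jarid2 null embryoid bodies at the later days. They made up 23.4% of the Mtf2 null library at day 10 (75 of 321 cells, interval 18.8 to 28.4) and 16.9% at day 7 (58 of 344, 13.1 to 21.2). In the Jarid2 null libraries the share was 15.2% at day 10 (40 of 264, 11.1 to 20.1) and 11.6% at day 7 (35 of 302, 8.21 to 15.7). The wild-type shares were 1.90% at day 7 (6 of 316 cells, 0.700 to 4.09) and 0.935% at day 10 (2 of 214, 0.113 to 3.34). At days 0 and 4 the share lay between 0.294% and 2.37% in the wild-type, Mtf2 null and Jarid2 null libraries. A single Eed null cell, from day 7, was in the cluster, and the other 3 Eed null libraries had none, which allows shares of up to 0.882% at day 0, 0.938% at day 4 and 1.49% at day 10. By genotype, 143 of 1343 Mtf2 null cells (10.6%), 86 of 1224 Jarid2 null cells (7.03%), 10 of 1201 wild-type cells (0.833%) and 1 of 1181 Eed null cells (0.0847%) belonged to cluster 11. With 1 library for each genotype and day, these shares could not be tested between genotypes or days. Depth bears on them, since with cells of at least 2500 UMIs the Jarid2 null share at day 7 was 7.75%.

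**Figure D1:**
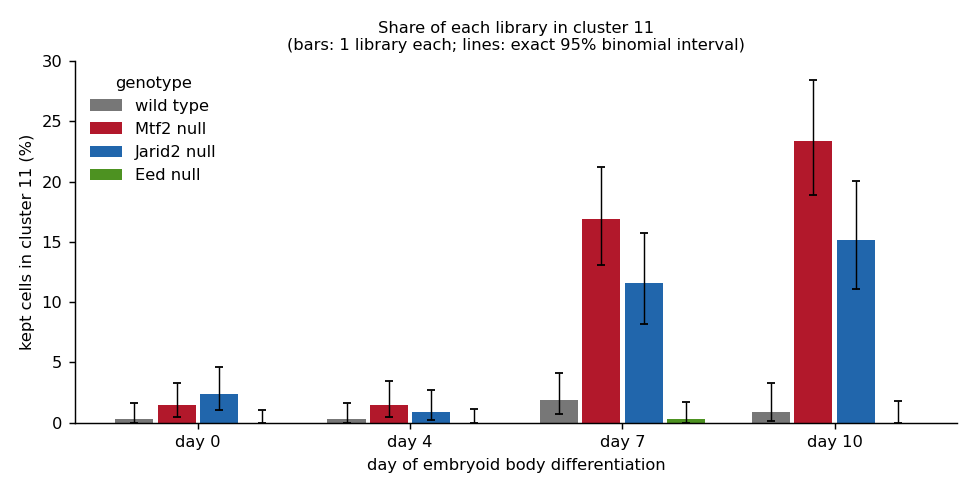
Share of kept cells in cluster 11 (%) for each of the 16 libraries, by day of differentiation and genotype. Bars are 1 library each and lines are exact 95% binomial intervals. The Mtf2 null and Jarid2 null bars at days 7 and 10 stand between 11.6% and 23.4%, and every other bar is at or below 2.37%.

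The genes targeted in the mutant lines were checked within the cluster. Mtf2 was at 60.5 CPM in the Mtf2 null cells of cluster 11, against 382 CPM in its Jarid2 null cells and 386 CPM in its 10 wild-type cells. Jarid2 was at 165 CPM in the Jarid2 null cells of cluster 11, against 331 CPM in its Mtf2 null cells. Both genes kept reads in the cells labelled null for them. Over whole libraries, Jarid2 was at 115 to 185 CPM in the Jarid2 null libraries, but at day 7 its 185 CPM there met 184 CPM in the Mtf2 null library, so that Jarid2 did not separate these libraries. Eed was at 1.33 to 11.5 CPM in the Eed null libraries and at 115 to 495 CPM in the others.

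The 4 marker genes were higher in cluster 11 in each of the 4 libraries with at least 10 of its cells. Cdkn1a was at 1217 CPM in cluster 11 and 323 CPM in the other cells of the Mtf2 null library at day 10, and at 1042 and 202 CPM at day 7. In the Jarid2 null libraries it was at 1813 and 248 CPM at day 10 and at 1591 and 129 CPM at day 7. The level in cluster 11 was the higher one in each library, and the mean of the 4 library log2 ratios was 2.69 (SD 0.74, libraries of differing genotype and day). Bbc3 was at 180, 159, 159 and 169 CPM in cluster 11 in the same order (Mtf2 null day 10 and day 7, Jarid2 null day 10 and day 7) and at 19.3, 22.4, 21.0 and 22.8 CPM in the other cells. Of the 4 markers its log2 ratio had the smallest spread over libraries, at 2.96 ± 0.17 (mean ± SD). Trp53inp1 stood between 447 and 751 CPM in cluster 11 and between 79.0 and 105 CPM outside it, with a log2 ratio of 2.59 ± 0.27, and Serpine2 between 333 and 613.7 CPM against 51.5 to 118 CPM, with 2.29 ± 0.47. Against cluster 1, the log2 ratios of Cdkn1a, Trp53inp1, Serpine2 and Bbc3 were 3.02, 2.82, 1.89 and 2.59, and against cluster 15 they were 2.43, 3.56, 1.76 and 2.98.

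In the 4 libraries, cluster 11 held a larger share of the p53-target UMIs than of the cells. In the Mtf2 null library at day 10 it made up 23.4% of cells and 20.8% of UMIs, but 38.7% of the p53-target UMIs and 49.8% of the Cdkn1a UMIs. In the Jarid2 null library at day 7 it made up 11.6% of cells, 7.78% of UMIs, 19.5% of p53-target UMIs and 51.1% of Cdkn1a UMIs. Between 43.2% and 51.1% of all Cdkn1a UMIs of these libraries came from cluster 11.

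Across the transcriptome, 865 of the 8266 genes measured (10.5%) were at least 2-fold higher in cluster 11 than in all other cells and 427 (5.17%) at least 2-fold lower. A gene counted as measured with at least 20 CPM in one of the compared sets. Of the 41 p53 targets listed, among them the label markers Cdkn1a, Trp53inp1 and Bbc3, 32 were measured. Of these, 22 were at least 2-fold higher, 1 was lower and 9 lay between. The median log2 ratio of the 32 was 1.82, beside 0.11 over all genes measured. Against the other cells of the same libraries, where 6.62% of 8358 measured genes were higher and 4.4% lower, 21 of 33 measured targets were higher and none lower, with a median of 1.57 beside 0.06. Against cluster 1 (12.8% of 8168 genes higher, 3.87% lower) 23 of 32 were higher, with a median of 1.70 beside 0.14. Against cluster 15 (10.1% of 8527 genes higher, 6.91% lower) 22 of 32 were higher, with a median of 1.39 beside -0.00, and no target was at least 2-fold lower than in either cluster.

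Among the targets that restrain the cell cycle, 5 of 8 measured members were at least 2-fold higher than in all other cells. Plk2, which encodes a stress-responsive polo-like kinase, was at 105 CPM in cluster 11 against 15.6 CPM (log2 ratio 2.76), and Ccng1, which encodes cyclin G1, at 472 against 109 CPM (2.12). Btg2, an anti-proliferative gene, stood at 239 against 47.1 CPM (2.34), and Sesn2, which encodes a stress-induced inhibitor of mTORC1 signalling, at 109 against 39.0 CPM (1.49). Sesn1 was at 18.7 against 22.6 CPM, a log2 ratio of -0.25, and the unmeasured member was Plk3.

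The apoptotic branch had 9 of 12 measured members at least 2-fold higher. Beside Bbc3 and Trp53inp1, Phlda3, which encodes an inhibitor of AKT, was at 172 against 22.0 CPM (2.97), and Pmaip1, which encodes the BH3-only protein NOXA, at 459 against 105 CPM (2.13). Perp, which encodes a membrane protein of desmosomes, was at 83.5 against 21.9 CPM, and Apaf1, which encodes the scaffold of the apoptosome, at 144 against 41.4 CPM. The death receptor genes differed in level. Tnfrsf10b was at 68.6 against 26.3 CPM, whereas Fas had 15 UMIs in the whole cluster and was not measured by the minimum. Bax, which encodes the pore-forming effector downstream of PUMA and NOXA, was at 202 against 227 CPM (-0.16), and Siva1 at 94.4 against 101 CPM (-0.10).

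In the group of DNA repair, metabolism and other targets, 8 of 12 measured members were at least 2-fold higher and 1 was lower. Ercc5, which encodes a nuclease of nucleotide excision repair, was at 220 against 53.4 CPM (2.05), and the translesion polymerase gene Polk at 151 against 42.2 CPM (1.84). Eda2r, a receptor gene of the tumour necrosis factor receptor family, was at 207 against 50.2 CPM (2.05), and Zmat3, which encodes an RNA-binding protein, at 239 against 86.1 CPM (1.47). The lower member was Tigar, which encodes a regulator of glycolysis, at 31.2 against 72.5 CPM (-1.20), but within the same libraries its log2 ratio was -0.02. The 7 other members, among them Gdf15, Ddb2, Xpc and Rrm2b, were below the minimum level. Rps27l, at 779 against 827 CPM (-0.08), is close in sequence to other ribosomal protein genes and its reads may be shared with them.

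**Figure D2:**
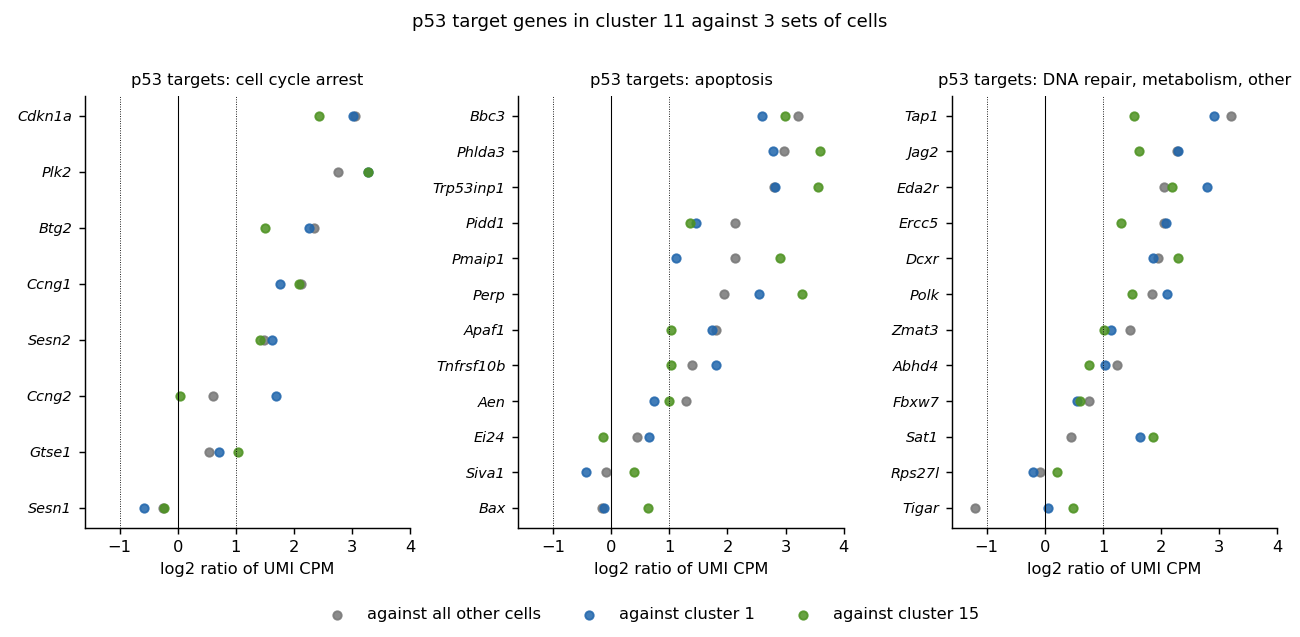
Log2 ratio of UMI CPM in cluster 11 to all other cells (grey), cluster 1 (blue) and cluster 15 (green) for each measured p53 target, in 3 groups by role. Dotted lines mark a 2-fold difference. Most points lie right of the upper dotted line, while Sesn1, Siva1, Bax and Rps27l lie between the lines.

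The transcript of p53 itself did not stand out. Trp53 was at 190 CPM in cluster 11, 200 CPM in all other cells, 165 CPM in cluster 1 and 202 CPM in cluster 15. By library its log2 ratio was 0.34 and 0.16 in the Mtf2 null libraries at days 10 and 7, and -0.45 and -0.58 in the Jarid2 null libraries. Of its regulators, the 2 measured genes at least 2-fold higher were Mdm2, at 342 against 97.5 CPM (log2 ratio 1.81), and Mdm4, which encodes the related inhibitor MDMX, at 195 against 84.7 CPM (1.21). Mdm2 was higher in all 4 libraries, at 240 to 486 CPM against 76.7 to 113 CPM in the other cells. The phosphatase gene Ppm1d, another p53 target that feeds back on p53, was at 68.6 against 37.4 CPM (0.88), and Usp7, which encodes a deubiquitinase of MDM2 and p53, at 360 against 513 CPM (-0.51). Cdkn2a, which encodes the MDM2 inhibitor ARF and the kinase inhibitor p16 and is a classical PRC2 target, had 3 UMIs in cluster 11 (2.34 CPM). Among the CDK inhibitors, Cdkn1b was at 172 against 85.7 CPM (1.01).

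The p53-target signal was graded among the cells of cluster 11. With each cell thinned to 2500 UMIs, which left out 50 cells of cluster 11 and 442 others, the 41 targets had a median of 17 UMIs per cell in cluster 11 (10th to 90th percentile 6 to 30, highest 97). The medians were 6 in the other cells, 7 in cluster 1 and 6 in cluster 15. The upper part of cluster 11 lay beyond nearly all other cells, while cells at its 10th percentile, with 6 such UMIs, were at the median of the others. After thinning, a Cdkn1a UMI was found in 76.3% of cells of cluster 11 and 22.5% of the others, and before thinning in 84.2% and 39.2%. As a reference, cluster 3, of median depth 8485 UMIs, had a Cdkn1a UMI in 25.2% of thinned cells and a Serpine2 UMI in 1.26%, against 47.9% of thinned cells of cluster 11 for Serpine2. UMIs of a gene of another cell type were found as well. The embryonic globin gene Hba-x, a product of primitive red blood cells, had a UMI in 40.8% of cells of cluster 11, in 55.9% of cluster 15 and in none of cluster 3, and their source was not tested.

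**Figure D3:**
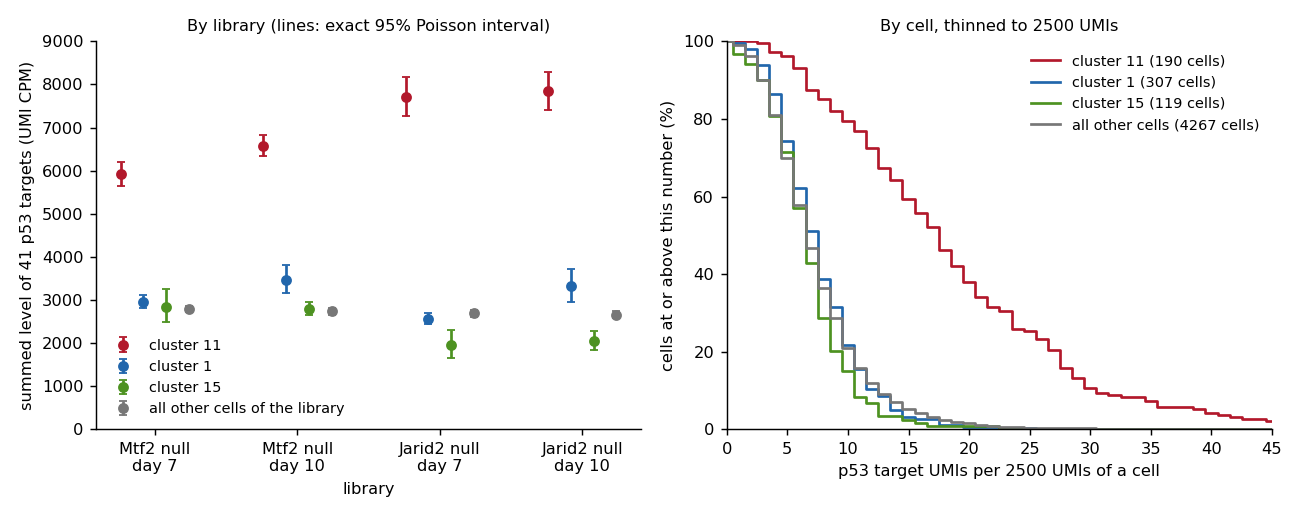
Left, summed level of the 41 p53 targets (UMI CPM) in cluster 11, cluster 1, cluster 15 and all other cells of each of the 4 libraries with at least 10 cells of cluster 11, with exact 95% Poisson intervals. Right, percentage of cells at or above each number of p53-target UMIs per 2500 UMIs. Cluster 11 lies at 5914 to 7840 CPM on the left, above the 1956 to 3470 CPM of the other sets, and its curve on the right is shifted towards higher numbers.

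Summed over the 41 targets, the level in cluster 11 was 5914 and 6578 CPM in the Mtf2 null libraries at days 7 and 10, and 7708 and 7840 CPM in the Jarid2 null libraries. The other cells of these libraries lay between 2659 and 2791 CPM, cluster 1 between 2565 and 3470 CPM and cluster 15 between 1956 and 2846 CPM. Cluster 11 was the highest set in all 4 libraries. Its Jarid2 null cells were above its Mtf2 null cells on both days, a difference that could not be tested with 1 library each. The genotypes also differed in composition. A subset with higher p53 targets, described below, held 50 of the 86 Jarid2 null but 37 of the 143 Mtf2 null cells of the cluster.

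The cell cycle genes showed a different arrangement, in which transcripts of DNA synthesis were lower. Of 20 measured S phase genes none was higher in cluster 11 than in all other cells and 8 were at least 2-fold lower, with a median log2 ratio of -0.93. Against cluster 1, 12 were lower (median -1.04), against cluster 15, 8 (-0.79), and against the other cells of the same libraries, 6 (-0.90). In the order of these 4 comparisons, 5.17%, 3.87%, 6.91% and 4.4% of all measured genes were lower. Pcna, which encodes the sliding clamp of DNA polymerase, was at 888 against 2086 CPM (-1.23), a gene with near-identical pseudogene copies that can share its reads. Rrm2, which encodes a subunit of ribonucleotide reductase, was at 138 and 146 CPM in the Mtf2 null cells of cluster 11 at days 10 and 7, against 347 and 372 CPM in the other cells, and at 263 and 310 CPM in the Jarid2 null cells, against 452 and 523 CPM. All 4 libraries showed the same direction for Rrm2. The 10 genes furthest below all 3 comparison sets were Tk1, Mb21d1, Ccnd1, Mycn, Cenpm, Rrm2, Gins1, Gins2, Rad54l and Ddah1. Ccnd1, which encodes cyclin D1, was at 69.4 CPM against 182 in all other cells, 219 in cluster 1 and 314 in cluster 15, and Mycn, which encodes a growth-promoting transcription factor, was at 133 CPM against 342 to 353 CPM. The cyclin E gene Ccne1 was at 112 against 352 CPM.

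Mitotic genes were closer to the other cells. None of 20 measured G2/M genes was at least 2-fold higher or lower than in all other cells (median -0.32). Against cluster 1, where 3.87% of all measured genes were lower, 1 was lower. Per cell, the medians of both lists were lower and the upper ends differed. Thinned cells of cluster 11 held a median of 6 S phase UMIs per 2500, against 15 in the other cells, and 7.5 G2/M UMIs against 19. The 90th percentile of S phase UMIs was 13 against 25, whereas that of G2/M UMIs was 32.1 against 35, so that a tail of cells with high mitotic transcripts remained in cluster 11.

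The genes that stood furthest above all 3 comparison sets went beyond the p53 list. The 15 highest were Trp53inp1, Phlda3, Plk2, Bbc3, Arap2, Mcam, Cdkn1a, Ddit4l, Bhlhe41, Klf6, Retreg1, Eda2r, Foxo3, Malat1 and Cpped1, of which 6 were on the p53 lists. Foxo3, which encodes a stress-responsive forkhead factor, was at 209 against 46.7 CPM in all other cells (log2 ratio 2.16), and Ddit4l, which encodes an mTORC1 inhibitor, at 81.9 against 7.89 CPM (3.38). Ddit4, its better known relative, was higher in all 4 libraries, at 499 to 866 CPM against 133 to 248 CPM. Mcam, which encodes a cell adhesion molecule, differed by genotype, with 195 and 236 CPM in the Jarid2 null cells of cluster 11 at days 10 and 7 but 93.3 and 87.4 CPM in the Mtf2 null cells. Arap2 followed the same pattern with 134 and 94.4 CPM against 42.2 and 35.6 CPM, on 11 to 22 UMIs a library. For both genes the SD over the 4 libraries was large, at 1.58 and 1.59 on the log2 scale.

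Malat1, a long noncoding RNA retained in the nucleus, was at 17489 CPM in cluster 11 against 4411 CPM in all other cells. By library it was at 15498 and 16560 CPM in the Mtf2 null cells at days 10 and 7 and at 24143 and 24290 CPM in the Jarid2 null cells, against 3779 to 4934 CPM in the other cells. Malat1 and the p53-target sum were both higher in the Jarid2 null than in the Mtf2 null cells of the cluster, with genotype and subset (below) not separated. In the Mtf2 null cells Malat1 was lower and the p53-target sum higher at day 10 than at day 7. In the Jarid2 null cells the Malat1 intervals of the days overlapped, at 23396 to 24907 CPM at day 10 and 23503 to 25096 CPM at day 7. None of these differences was tested. With Malat1 taken out of the totals the median log2 ratio of the p53 targets was 1.84. That step rescales every other gene alike and says nothing of cells high in Malat1. Among cells in the middle range of UMI totals of cluster 11 the median was 1.84. The share of mitochondrial transcripts, a common sign of damaged cells, was not analysed here, because no gene of the mitochondrial list was in the table used. The part of RNA quality in the profile was not tested.

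Other stress programmes were compared list by list. Over all genes measured, 10.5% were at least 2-fold higher than in all other cells, with a median log2 ratio of 0.11. Of 12 measured genes of the integrated and unfolded protein stress responses, 3 were at least 2-fold higher than in all other cells and none lower (median 0.47). Against cluster 1, 4 of the 12 were higher (median 0.72), and against cluster 15, 6 (0.94). Trib3, which encodes a pseudokinase induced by ATF4, was at 48.4 against 16.2 CPM (1.59), Sesn2, which is also a p53 target, at 109 against 39.0 CPM, and Atf4 itself at 662 against 434 CPM (0.61). The chaperone gene Hspa5 was at 346 against 522 CPM (-0.59). Of 9 immediate early genes, which respond to dissociation, 2 were higher than in all other cells (list median 0.04). These were Klf6 at 801 against 183 CPM and Jun at 131 against 50.5 CPM, while Egr1 and Junb had log2 ratios of -0.10 and 0.04. Against cluster 1, 3 of the 9 were higher (median 0.81), and against cluster 15, 6 (1.26), where 12.8% and 10.1% of all measured genes were higher. None of 4 measured heat shock genes was at least 2-fold different. Of 12 genes of glycolysis and hypoxia 3 were higher, among them Ddit4, Vegfa at 204 against 81.0 CPM (1.33) and the glucose transporter gene Slc2a1 at 716 against 332 CPM (1.11), with a list median of 0.28. The part of dissociation in these levels was not tested.

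Lineage genes of cluster 11 were compared list by list. Over all genes measured, 10.5% were at least 2-fold higher and 5.17% lower than in all other cells. These shares were 12.8% and 3.87% against cluster 1 and 10.1% and 6.91% against cluster 15. Of 9 measured neural ectoderm genes 4 were at least 2-fold higher than in all other cells (median 0.98), but against cluster 15, 8 of 14 were lower (median -1.86), and against cluster 1 none of 10 was higher and 1 was lower (median -0.12). Sox11, which encodes a transcription factor of early neural cells, was at 893 CPM, against 326 CPM in all other cells, 559 CPM in cluster 1 and 1549 CPM in cluster 15. Against cluster 15, 7 of 9 measured anterior neural and eye genes were lower (median -3.62), and its 5 lowest genes, Lhx5, Crabp1, Nr2f1, Six3os1 and RMST-1, are neural or lie beside neural genes. Six3os1 runs antisense to the Six3 locus, and its reads and those of Six3 cannot be told apart without strand.

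Epiblast genes, which mark the pluripotent tissue about to form the germ layers, placed cluster 11 below cluster 1. Of 11 measured members 4 were at least 2-fold lower than in cluster 1 and none was higher (median -0.64). Over all genes measured, 3.87% were lower and 12.8% higher than in cluster 1. The de novo methyltransferase gene Dnmt3b was at 593 CPM against 1731 CPM in cluster 1 and 164 CPM in cluster 15, and the epiblast growth factor gene Fgf5 at 64.7 against 102 and 6.91 CPM. Pou3f1, which encodes a factor of epiblast and early neural cells, was at 353 against 487 and 87.5 CPM. The 5 genes lowest against cluster 1 were Foxd3, Platr10, Tdgf1, Dppa5a and L1td1, genes known from pluripotent cells. Tdgf1, which encodes a Nodal co-receptor, was at 142 against 753 CPM.

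Naive pluripotency genes, which mark undifferentiated stem cells, were lower than in all other cells for 9 of 11 measured members (median -1.42) and not higher for any. Within the same libraries 4 of 10 were lower (median -0.67). Over all genes measured, 5.17% were lower than in all other cells and 4.4% in the same libraries. Naive genes were instead higher for 6 of 10 members against cluster 1 (median 1.11, with 2 lower) and for 8 of 8 against cluster 15 (2.58). Against these clusters 12.8% and 10.1% of all measured genes were higher. Markers of other lineages were mostly lower than in the other cells of the same libraries, where 6.62% of all measured genes were higher and 4.4% lower. Within the same libraries, 11 of 13 measured mesoderm genes, 4 of 7 endoderm genes (with 1 higher) and 5 of 5 endothelial and blood genes were at least 2-fold lower in cluster 11 than in the other cells, with medians of -2.29, -1.13 and -3.76. In those terms 2 of 6 neural crest genes and 4 of 5 visceral endoderm genes were lower, and of the keratin and trophoblast genes 1 of 5. Against clusters 1 and 15 the lists were not low throughout. There the medians were 0.23 and -0.09 for mesoderm, -0.34 and 0.31 for endoderm and 0.82 and -0.60 for visceral endoderm. They were 1.28 and -0.93 for neural crest and 1.21 and 1.31 for keratin and trophoblast genes. For endothelial and blood genes they were 1.58 and -0.49, on 2 measured genes. Foxa2 and Sox17, which define endoderm, were at 8.58 and 6.24 CPM, and the trophoblast gene Cdx2 had no UMI. Of 6 germ cell genes 4 were lower than in all other cells (median -2.34), and in the same libraries 2 of 4 were lower and 1 was higher (median -0.93).

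At the finest deposited resolution of 8, cluster 11 fell into 2 large subsets that shared the p53 programme and differed in developmental genes. The larger subset held 121 cells (84 Mtf2 null, 35 Jarid2 null, 1 wild type and 1 Eed null), of which 46 came from day 7, 73 from day 10 and none from day 0. The smaller subset held 95 cells (50 Jarid2 null, 37 Mtf2 null and 8 wild type) and spread over day 0 (13 cells), day 4 (5), day 7 (41) and day 10 (36). It was also shallower, with a median of 3023 against 5443 UMIs. A further 16 cells, 15 of them Mtf2 null, formed another subset, and 8 cells were in none of these.

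Both large subsets were high in p53 targets, at 6181 CPM in the larger and 9973 CPM in the smaller, against 2715 CPM in all other cells. The subset of 16 cells stood at 3110 CPM, with Cdkn1a at 383 CPM and Bbc3 at 40.3 CPM, and so carried little of the programme. Cdkn1a was at 1084 and 2014 CPM in the larger and the smaller subset, Mdm2 at 225 and 712 CPM, Plk2 at 55.5 and 243 CPM and Malat1 at 14748 and 28032 CPM. The shallower subset thus had the higher p53 and Malat1 levels. In S phase genes they were alike in level when pooled over days, at 2996 and 3169 CPM, against 6314 CPM in all other cells. The smaller subset was at 4883 CPM in its 13 day 0 cells. At days 7 and 10 it was at 2448 CPM (interval 2251 to 2658), below the larger subset (2874 to 3122).

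The larger subset carried the epiblast and neural transcripts. Its summed epiblast genes were at 2704 CPM, against 879 CPM in the smaller subset, and its neural ectoderm genes at 2316 against 1102 CPM. Dnmt3b was at 859 against 158 CPM, Pou3f1 at 484 against 73.3 CPM, Otx2, which encodes a factor of epiblast and anterior neural tissue, at 399 against 144 CPM and Sox11 at 1071 against 413 CPM. Genes of glycolysis and hypoxia were also higher there, at 13022 against 7522 CPM. Summed naive pluripotency genes were higher in the smaller subset, at 1979 against 403 CPM, with 9 of 10 measured members at least 2-fold higher and Nanog lower (46.9 against 99.1 CPM). Of all 8672 genes measured in these subsets, 1049 were at least 2-fold higher in the smaller and 985 lower. Klf5 was at 683 against 123 CPM, Klf2 at 525 against 71.4 CPM and Esrrb, which encodes a nuclear receptor of the naive network, at 158 against 6.61 CPM. The naive level also differed by day. Zfp42, a marker of undifferentiated cells, was at 38.1 CPM in the smaller subset, below the 291 CPM of all other cells. In its day 0 cells Zfp42 was at 74.0 CPM, against 769 CPM in the wild-type cells of day 0 outside cluster 11. Of the 14 day 0 cells of cluster 11, 8 were Jarid2 null, 5 Mtf2 null and 1 wild type. Genotype and subset thus cannot be told apart in these day 0 comparisons. The summed naive level was 4525 CPM in the day 0 cells of the smaller subset, beside 4436 CPM in those wild-type cells. In the same order Klf2 was at 1467 and 778 CPM, Klf5 at 1393 and 1270 CPM and Esrrb at 395 and 242 CPM. Tfcp2l1 was at 271 and 183 CPM, while Nanog, like Zfp42, was lower, at 49.3 and 212 CPM. In the day 7 and day 10 cells of the smaller subset the summed level was 1110 CPM, beside 1012 CPM in all other cells of those days. The p53-target sum of the smaller subset was 9408 CPM at day 0 and 10265 CPM at days 7 and 10.

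**Figure D4:**
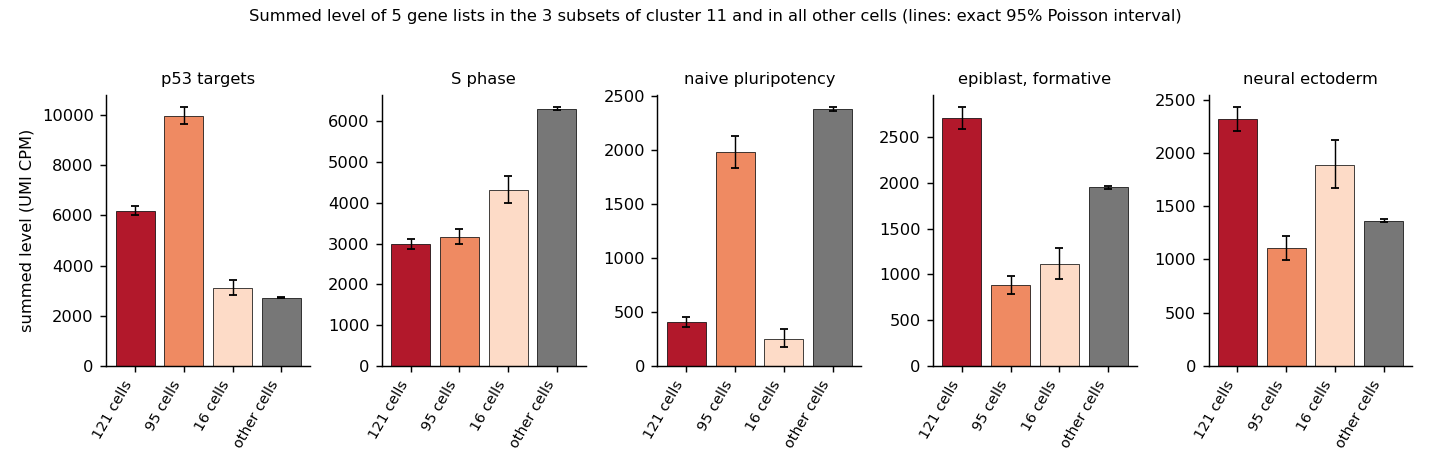
Summed level (UMI CPM) of 5 gene lists in the subsets of 121, 95 and 16 cells of cluster 11 and in all other cells, each panel on its own scale from 0, with exact 95% Poisson intervals. The subsets of 121 and 95 cells are both high in p53 targets and low in S phase genes, and they separate in the naive, epiblast and neural lists.

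The few cells of cluster 11 from early days and from wild type varied in their p53 targets. The summed level was 8593 to 9048 CPM in the day 0 groups of 1 to 8 cells, and 5586 to 12448 CPM in the wild-type groups of 1 to 6 cells. The 5 Mtf2 null cells of day 4 were at 3919 CPM, close to the 3315 CPM of the other cells of their library, and the 1 Eed null cell was at 1447 CPM, below the 1951 CPM of its library. Cdkn1a was at 1258 CPM in the 14 cells of day 0 (interval 1046 to 1501), at 357 CPM in the 9 cells of day 4 (231 to 526) and at 2075 CPM in the 10 wild-type cells (1660 to 2563). Trp53inp1 was at 1227 CPM in the day 0 cells, 756 CPM in the day 4 cells and 531 CPM in the wild-type cells. Bbc3 was at 133, 143 and 96.5 CPM in these groups, on 13, 10 and 4 UMIs.

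Outside cluster 11, the p53 targets were lowest in the Eed null libraries. Their summed level was 2026, 2140, 1951 and 1488 CPM in the Eed null libraries at days 0, 4, 7 and 10. It was 2893, 3437, 2740 and 3296 CPM in wild type, 3165, 3315, 2791 and 2740 CPM in Mtf2 null and 2814, 2887, 2689 and 2659 CPM in Jarid2 null cells. The Eed null values lay below every other library. In the 4 libraries that held most of cluster 11, the remaining cells were thus close to the lowest wild-type library, at 2659 to 2791 CPM.

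The content of RNA per cell was read from the ERCC spike-in molecules added to each well, which the clustering did not use. The gene UMIs set against them are those the clusters were made from, and cluster 11 was shallower than the other cells. The ratio and its test are therefore not independent of how the cells were chosen. The number of gene UMIs per ERCC UMI had a median of 51.2 in cluster 11 and 58.6 in the other cells of the Mtf2 null library at day 10, and of 103 and 153 at day 7. In the Jarid2 null libraries the medians were 29.3 and 51.3 at day 10 and 107 and 246 at day 7. Cells of cluster 11 had the lower median in all 4 libraries, with a mean log2 ratio of -0.69 (SD 0.42). An exact two-sided sign-flip permutation test over the 4 libraries gave p = 0.125, the smallest p that 4 libraries allow. With the 8 libraries that held at least 5 cells of cluster 11, the ratio was below 0 in 7, the mean was -0.69, and the same exact permutation test gave p = 0.0156, where 0.00781 is the smallest possible. Within the 4 libraries the ratio was also below 0 against cluster 1 (-0.62 to -1.46) and against cluster 15 (-0.23 to -0.90). The spike-in rows of the plate tables were 1 field short and were moved by 1 well. After this move the rank correlation over wells between gene UMIs and ERCC UMIs was 0.14 to 0.48, against 0.00 to 0.30 as deposited, and with the deposited positions the mean log2 ratio was -0.72. Loss of RNA from a cell before lysis and a lower RNA content of the living cell cannot be told apart.

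**Figure D5:**
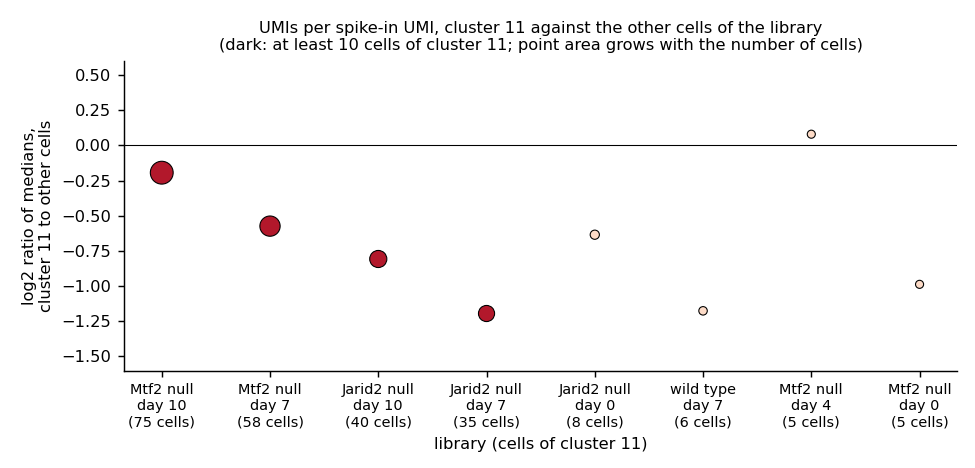
Log2 ratio of the median number of UMIs per spike-in UMI in cluster 11 to that in the other cells of the same library, for the 8 libraries with at least 5 cells of cluster 11. Dark points are the 4 libraries with at least 10 such cells, which all lie below 0, from -1.19 to -0.19.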

How the data were processed

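Single cells of 16 libraries were measured by a CEL-Seq2-type protocol on 384-well plates. Per the study's methods and the submitters' processing notes, the authors aligned reads with Bowtie2 to GRCm38/mm10, counted them with HTSeq, removed poor cells with scater, and normalized and clustered the rest with Seurat, with the library regressed out. The deposited values used here were raw UMI counts of 15830 genes in 4949 cells with their cluster labels, together with the plate tables of counts that hold the ERCC spike-ins. The authors' filter of 500 genes per cell leaves all 4949 cells, whose lowest number of genes was 720. Library totals were 1339722 to 3889890 UMIs. The bulk libraries were not used here.

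Counts were summed over the cells of a set and scaled to the set total (CPM), and log2 ratios used a pseudocount of 0.5 UMI. Genes at 20 CPM or more in one set were counted as measured, and a log2 ratio of 1 as a difference. Within-library ratios used the 4 libraries with at least 10 cells of cluster 11. Cells were thinned to 2500 UMIs with seed 7. No doublet caller was run, since cells were sorted singly, but the 5% of cells with the most UMIs were left out as an alternative. With 1 library for each genotype and day no test between genotypes or days was made. The only test was an exact sign-flip permutation over libraries of the spike-in ratio. Its samples are single libraries of different lines and days, and its gene UMIs are those that were clustered. In each plate table the 91 spike-in rows were 1 field shorter than the gene rows and were moved by 1 well.

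The members and the gene lists were chosen with earlier results of these data known. Named genes were the 4 label markers, the measured p53 targets and regulators, the 15 genes with the largest smallest-of-3 ratio (at least 50 CPM and a UMI in 20% of the cells of cluster 11), the 10 lowest by the same measure, the 5 highest and lowest against clusters 1 and 15, and from each other list 2 by level and 2 by ratio. List members named outside this rule, such as the lineage genes Rax, Six3, Pax6, Foxa2, Sox17 and Cdx2, the subset genes, Egr1, Junb and Slc2a1, were chosen after their values were seen. Promoters were taken from RefSeq (GRCm38.p6). Scripts used Python 3.11.15, NumPy 2.4.6, pandas 2.3.3, SciPy 1.17.1 and matplotlib 3.10.9, and were tested on simulated data.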

Additional observations from a re-analysis of the deposited data

Results flagged for a closer look

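Among 135 named genes, 1 had log2 ratios of at least 0.5 in size in all 4 libraries, with opposite directions in the 2 genotypes. Smaller ratios were not considered, among them those of Trp53. Tbx3, which encodes a T-box factor of naive stem cells and later lineages, was lower in cluster 11 than in the other cells of both Mtf2 null libraries and higher in both Jarid2 null libraries. Its level in cluster 11 was 32.4 and 31.1 CPM in Mtf2 null cells at days 7 and 10, against 93.4 and 54.4 CPM in the other cells. In Jarid2 null cells it was 128 and 165 CPM, against 45.5 and 62.4 CPM. The log2 ratios were -1.46 and -0.76 in Mtf2 null and 1.52 and 1.42 in Jarid2 null libraries, and the means differed by -2.58. The difference was not tested, and the smallest number of UMIs behind a value was 10. Tbx3 was at 62.1 CPM in the larger and 150 CPM in the smaller subset of cluster 11. The smaller subset held 50 Jarid2 null and 37 Mtf2 null cells and the larger 35 and 84, so genotype and subset were not separated.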

How the results depend on the processing

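No paired analysis was possible because each single-cell genotype and day was 1 library with no replicate number shared between groups, and only cells of the same library were set against each other. The p53-target median (1.82) lay between 1.61 and 1.91 over the same 32 genes under every alternative run (1.57 over the 33 genes measured in the same libraries), and between 1.67 and 1.84 with 1 library left out. Without a library, the S phase median lay between -0.94 and -0.86 and the spike-in ratio between -0.86 and -0.53. In the same runs, genes higher and lower numbered 870 to 947 and 407 to 468 against all other cells, 540 to 808 and 362 to 476 in the same libraries, 1005 to 1133 and 293 to 367 against cluster 1, and 869 to 1083 and 631 to 799 against cluster 15. With no minimum level these counts were 2717 and 1599, 2434 and 1565, 4120 and 1120, and 2852 and 1948. With a minimum of 50 CPM they were 400 and 272, 247 and 168, 478 and 210, and 436 and 288. The mean over cells gave 477 genes lower against cluster 1. Cells between the 25th and 75th percentile of the UMI totals of cluster 11, an alternative chosen after seeing the data, gave 947 higher and 672 lower in the same libraries, 741 lower against cluster 1, 1183 lower against cluster 15 and an S phase median of -0.73. Fewer cells enter each of these sets. The cluster at resolution 3 that held most of the cells, the totals without Malat1 and the deposited spike-in wells were also chosen after seeing the data.

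With cells of at least 2500 UMIs the share of cluster 11 in the Jarid2 null library at day 7 was 7.75%. As a mean over cells, the p53-target level outside cluster 11 was 3105, 3658 and 2855 CPM in wild type at days 0, 4 and 7, 3283, 3523, 3073 and 2863 CPM in Mtf2 null at days 0, 4, 7 and 10, 2941, 3295 and 2746 CPM in Jarid2 null at days 0, 4 and 10, and 2078 CPM in Eed null at day 0. The spike-in ratio over libraries with at least 5 cells was -0.69 (exact permutation p = 0.0156). The keratin and trophoblast list turned from 1.16 against all other cells to -0.32 in the same libraries, and RMST-1 within libraries (-1.65) ranged from -3.46 to 0.66 with 1 library left out, and turned without the Mtf2 null library at day 10. The cause was not tested. Of the values of single genes, 2313 moved by less than the spread over libraries, 17 by more and 1 turned, and under the alternatives chosen after seeing the data 481 moved by less and 42 by more. Depth limits genes below 20 CPM, which rest on fewer than 26 UMIs in cluster 11, and the groups of 14 or fewer cells.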

Other observations

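Epithelial genes also set cluster 11 apart in level from cluster 15. Cdh1, which encodes E-cadherin, was at 379 CPM in cluster 11, 430 CPM in cluster 1 and 43.8 CPM in cluster 15 (log2 ratio 3.10 against cluster 15). Epcam, an epithelial adhesion gene, was at 328, 334 and 42.6 CPM. The neural cadherin gene Cdh2 was at 32.8 CPM against 158 CPM in cluster 15 (-2.26). The keratin genes Krt8 and Krt18 were at 172 and 52.3 CPM in cluster 11 and at 77.2 and 22.0 CPM in all other cells, but within the same libraries their log2 ratios were -0.32 and 0.02. These genes were chosen after their values were seen.

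Of 10 measured genes of PRC2 subunits 1 was at least 2-fold lower than in all other cells, namely Mtf2, at 170 CPM against 360 CPM, in a cluster with 143 Mtf2 null cells among 240. Ezh1, which encodes the catalytic subunit of resting cells, was at 55.4 against 37.4 CPM (0.57) and Ezh2 at 189 against 213 CPM (-0.17). In the same libraries 1 of 10 was higher and none lower, where 6.62% of all measured genes were higher. The log2 ratio of Ezh1 within the 4 libraries was 0.98 to 1.98 (mean 1.27). Of 15 measured feedback genes of signalling pathways 3 were higher and 4 lower than in all other cells, and in the same libraries none was higher and 1 lower. Over all genes measured, 10.5% were higher and 5.17% lower than in all other cells, and 6.62% and 4.4% in the same libraries.

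Cells with many p53-target UMIs were not confined to cluster 11. At or above its median of 17 per 2500 UMIs stood 99 of its 190 thinned cells (52.1%), 18 of 106 cells of cluster 18 (17.0%), 39 of 298 of cluster 2 (13.1%) and 29 of 253 of cluster 7 (11.5%). Outside cluster 11, the share was 8.39% in the wild-type library at day 4 (24 of 286 cells) and 7.94% at day 10 (15 of 189). None of the 323, 277, 296 and 176 thinned Eed null cells at days 0, 4, 7 and 10 reached it. In the same libraries the Trp53 transcript was at 45.1, 29.7, 36.7 and 31.3 CPM, against 110 to 431 CPM in the other 12 libraries.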
